A study of Mus musculus with 12 samples.

Results

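The members are the protein-coding genes of mouse chromosome 13 whose start lies between 50 and 75 Mb in GENCODE M21 (GRCm38), apart from a cluster of zinc finger genes. Symbols made of Zfp and a number (4 of them with a letter after the number), Rsl1, symbols made of Rslcan and a number, and 2410141K09Rik were left out, which removed 34 genes. This gave 196 members of 43346 gene IDs in the deposited table. Of these, 142 passed the filter on low counts and were tested, and 54 were not, 16 of them with 0 counts in every library. The highest mean level among the untested members was 0.239 CPM (counts scaled by library size). The rule itself uses position and annotation and no expression value, although it was set with earlier results of these data known.

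RNA was sequenced from mouse embryonic stem cells in 4 groups, each of 3 libraries. B6 is C57BL/6J and D2 is DBA/2J, both inbred strains. B6-13D2, labelled B6.D2-(rs30079041-rs51756099)/Bakr, has D2 DNA on part of chromosome 13 and B6 DNA elsewhere. D2-13B6 is the reciprocal line, labelled D2.B6-(rs29224292-rs13469455)/Bakr in the sample labels but with rs51756099 as its end in the series' design text. The positions of these markers were not used here, so which members lie inside each segment is not known from the labels. All groups grew in serum medium with LIF, PD0325901 and CHIR99021, and no group received another treatment. The protocol describes a single cell line per strain, so a difference between strains cannot be told apart from a difference between lines. The titles go against it for B6: they give replicate 3 another line (4-1) than the other B6 libraries (5-1), and they give D2 another line (2-9) than its cell line field does (5-5). Titles call the samples technical replicates, while the protocol describes separate cultures, so the p-values measure only the spread between these samples. Names of the congenic columns carry a prefix that the parental ones lack; a batch that it may mark would hold whole groups, so its part in any contrast of congenic with parental lines cannot be told apart.

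A congenic line lets the allele of a region be separated from the rest of the genome. A gene controlled by sequence near itself (in cis) is expected to follow the allele that its own region carries on either background, whereas a gene controlled by products of other loci (in trans) may follow the background. The interval holds genes of many kinds: homeobox factors such as Msx2, Pitx1 and the Irx genes, the hedgehog receptor Ptch1, the Fanconi anaemia gene Fancc, the telomerase gene Tert, mitochondrial enzymes such as Sdha, and placental cathepsins.

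Library totals ranged from 22184196 to 36411799 expected counts, and 17148 genes of the whole genome were tested. Sums over 8 markers of embryonic stem cells were 4289 to 4657 CPM in B6, 4907 to 5231 in B6-13D2, 3068 to 3150 in D2 and 3856 to 3923 in D2-13B6. Sums over 8 fibroblast markers, among them Col1a1, were 9356 to 10160 CPM in B6, 3084 to 3172 in B6-13D2, 14140 to 16920 in D2 and 7711 to 8035 in D2-13B6. None of the 8 fibroblast markers was at 0 in any group, although the labels name only stem cells. The order of the groups by summed fibroblast markers, from B6-13D2 through D2-13B6 and B6 to D2, comes back below beside the members that share it.

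The members were compared with the pattern that an allele of their own region would give on both backgrounds. In B6-13D2 against B6, the D2 segment on a B6 background, 87 of 142 members were called at an edgeR adjusted p under 0.05 (61.3%, against 58.3% of all genes), 30 higher (25.4% of all genes) and 57 lower (32.9%). In D2-13B6 against D2, the B6 segment on a D2 background, 96 members were called (67.6%, against 57.3% of all genes), 23 higher (27.6% of all genes) and 73 lower (29.7%). These comparisons share no library. Called in both and moved the same way by the D2 allele were 17 members (12%, against 7.32% of all genes). Of these, 9 were higher with the D2 segment (3.01% of all genes) and 8 were lower (4.31% of all genes). Called in both but shifted alike in either congenic line, whichever allele it received, were 48 members (33.8%, against 32.2% of all genes). Whether the shares of members differ from those of all genes was not tested. With scaling on chromosome 13 genes outside the interval, an alternative added after the data were seen and called the scaling on chromosome 13 below, 15 members followed the allele (6.61% of all genes), and 11 of the 17 were among them. Of the 15, 4 were higher with the D2 segment (1.21% of all genes) and 11 lower (5.4%). The splits of called members also changed under that scaling. They were 51 higher and 36 lower in D2-13B6 against D2 (49.2% and 15.8% of all genes). In B6-13D2 against B6 they were 46 and 48 (36.2% and 25.2%).

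Sfxn1, Rab24, Grk6, Klhl3, Ubqln1, Naa35, Golm1, Spata31d1a, Fbp2, Fbp1, Fancc, Slc35d2, Nlrp4f, Gm10324, Gm10772, Mrpl36 and Sdha are the 17 members that followed the segment allele. Where the change had to reach 0.5 on the log2 scale in each of the pairs, a size chosen after the values were seen, 9 remained: Klhl3, Spata31d1a, Fbp2, Fbp1, Fancc, Slc35d2, Nlrp4f, Gm10324 and Gm10772 (6.34%, against 1.6% of all genes). All 9 start between 58000228 (Klhl3) and 66227319 (Gm10772). From Klhl3 to Gm10772, a stretch also chosen after the values were seen, 12 of 43 tested members followed the allele (27.9%). Before it 3 of 63 did (4.76%), and after it 2 of 36 (5.56%), against 7.32% of all genes. Since the stretch was drawn around the followers, these shares are a description. Under the scaling on chromosome 13 (6.61% of all genes), the followers numbered 12 in this stretch, 11 of them the same, and 0 after it. The 3 before it were then other genes than the 3 above. The plot of the segment effects by position shows both comparisons along the interval.

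**Figure D1:**
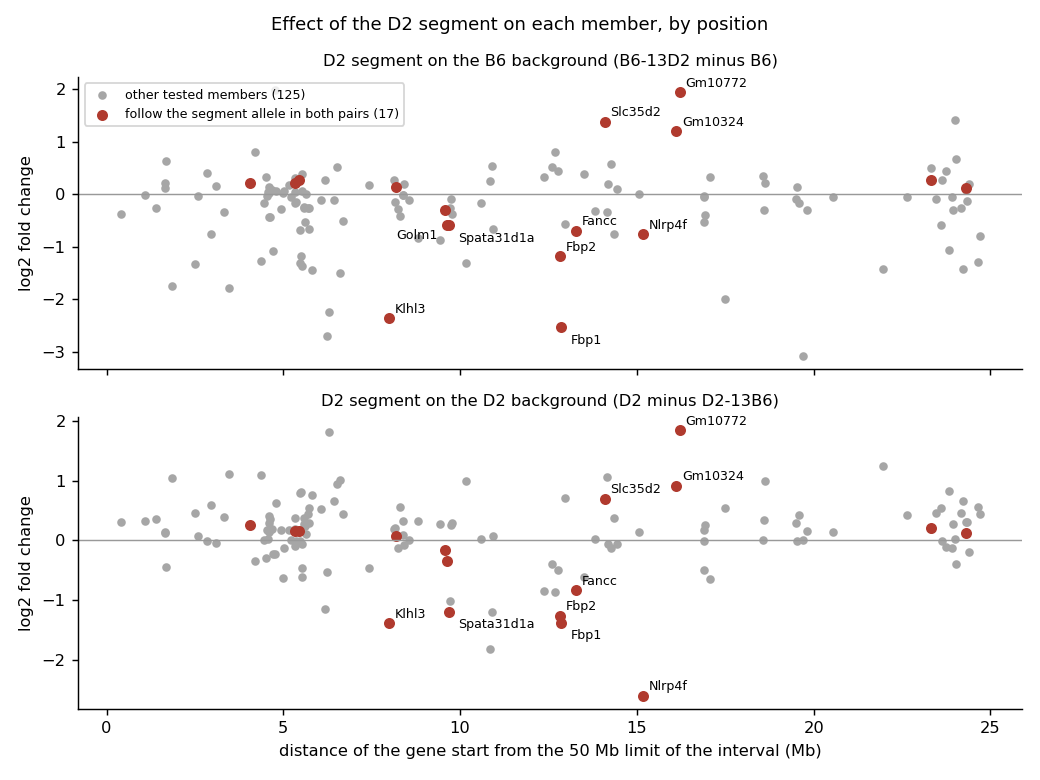
Effect of the D2 segment on each tested member (log2 fold change, vertical axis) by the distance of the gene's start from 50 Mb (horizontal axis, Mb), for B6-13D2 minus B6 and for D2 minus D2-13B6. Members that followed the allele in both are coloured, and those with the larger effects start between Klhl3 and Gm10772.

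In windows of 5 Mb by gene start, 1 of 30 tested members followed the allele from 50 to 55 Mb, 7 of 51 from 55 to 60 Mb, 4 of 21 from 60 to 65 Mb, 3 of 18 from 65 to 70 Mb and 2 of 22 from 70 to 75 Mb. These are shares of 3.33%, 13.7%, 19.0%, 16.7% and 9.09%, against 7.32% of all genes. The counts of members that moved against the allele were 11, 16, 7, 3 and 11 in the same windows, or 36.7%, 31.4%, 33.3%, 16.7% and 50%, against 32.2% of all genes. The tested gene just before the limit at 50 Mb, Iars (the cytosolic isoleucine tRNA synthetase, 49682100 to 49734267), had 348 CPM ± 5.97 (SD, n = 3) in B6, 402 ± 4.74 in B6-13D2, 281 ± 9.84 in D2 and 226 ± 3.91 in D2-13B6. In the main fit Iars followed the allele. Its log2 fold changes were 0.21 (edgeR adjusted p 2.87e-05) for B6-13D2 against B6 and -0.32 (edgeR adjusted p 2.26e-07) for D2-13B6 against D2. The first gene inside it, Gm906 (start 50245181), had at most 2 counts in any library. Inside the limit at 75 Mb lies Cast (start 74692368), described below, and outside it Pcsk1 (start 75089826), with 1.30 CPM ± 0.255 in B6, 1.07 ± 0.0273 in B6-13D2, 1.11 ± 0.153 in D2 and 2.25 ± 0.473 in D2-13B6. Pcsk1 was called in D2-13B6 against D2 (1.04, edgeR adjusted p 0.0005) but not in B6-13D2 against B6 (-0.28, edgeR adjusted p 0.324).

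RefSeq promoters are shown for 4 of the 5 followers that had an entry, whole counts, and all 6 libraries with the D2 segment on the same side of all 6 with the B6 segment. The other, Ubqln1, is not shown because its call was lost in 10 of 19 alternatives. Each runs from 250 bases before to 50 bases after a RefSeq start on GRCm38.p6, which is the C57BL/6J reference; the D2 sequence was not used here. All 4 are written 5′ to 3′ along the gene, on the minus strand. Klhl3 is at chr13:58113598-58113897, Golm1 at chr13:59675735-59676034, Fancc at chr13:63431696-63431995 and Nlrp4f at chr13:65205667-65205966. Capitals mark matches, on either strand and allowed to overlap, to the GC box (GGGCGG), the CCAAT box (CCAAT), the TATA box (TATAAA) and the E-box (CACGTG).
Klhl3: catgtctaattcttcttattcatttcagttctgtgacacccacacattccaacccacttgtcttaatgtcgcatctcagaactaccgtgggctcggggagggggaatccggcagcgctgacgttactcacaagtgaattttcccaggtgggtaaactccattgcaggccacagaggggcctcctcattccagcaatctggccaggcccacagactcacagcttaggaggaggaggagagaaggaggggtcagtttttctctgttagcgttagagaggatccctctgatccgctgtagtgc
Golm1: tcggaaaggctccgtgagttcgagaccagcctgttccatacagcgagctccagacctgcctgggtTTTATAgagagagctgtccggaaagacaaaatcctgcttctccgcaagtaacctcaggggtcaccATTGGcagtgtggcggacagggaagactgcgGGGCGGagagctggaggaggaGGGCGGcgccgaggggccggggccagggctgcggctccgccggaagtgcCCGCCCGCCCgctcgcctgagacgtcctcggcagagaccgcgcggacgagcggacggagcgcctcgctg
Fancc: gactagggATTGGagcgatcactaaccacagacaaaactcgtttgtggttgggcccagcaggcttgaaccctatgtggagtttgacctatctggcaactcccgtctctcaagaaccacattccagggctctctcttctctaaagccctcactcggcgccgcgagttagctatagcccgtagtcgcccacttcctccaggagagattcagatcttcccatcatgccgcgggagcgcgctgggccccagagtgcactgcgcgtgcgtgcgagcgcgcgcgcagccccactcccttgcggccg
Nlrp4f: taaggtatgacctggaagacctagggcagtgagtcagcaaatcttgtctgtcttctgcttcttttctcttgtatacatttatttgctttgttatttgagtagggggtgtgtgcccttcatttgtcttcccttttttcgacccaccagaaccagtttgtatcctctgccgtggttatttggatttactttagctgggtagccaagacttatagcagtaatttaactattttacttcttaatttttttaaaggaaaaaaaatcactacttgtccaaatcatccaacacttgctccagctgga
The Golm1 window held 4 GC boxes, 1 CCAAT box and 1 TATA box, and the Fancc window held 1 CCAAT box. The Klhl3 and Nlrp4f windows held none of these letters. Of 32851 RefSeq promoters of this length, 35.7% held a GC box, 37.4% a CCAAT box, 13.6% a TATA box and 7.15% an E-box. CG dinucleotides numbered 30 in Golm1, 23 in Fancc, 8 in Klhl3 and 2 in Nlrp4f, against a median of 7.0 and quartiles of 3.0 and 20 over all promoters. Of the 17 followers, 15 had an entry in the RefSeq promoter table; Slc35d2 and Gm10772 did not. A match describes the letters only.

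Klhl3 (58000228 to 58113592) encodes an adaptor that brings substrates, among them WNK kinases, to a cullin ubiquitin ligase. B6 libraries had 5.84, 5.04 and 6.86 CPM, B6-13D2 0.935, 1.41 and 1.09, D2 0.583, 0.806 and 0.546, and D2-13B6 1.97, 1.74 and 1.5. Every library with the B6 segment was above every library with the D2 segment, but D2-13B6 stayed far below B6. The log2 fold change was -2.36 (SE 0.195, edgeR adjusted p 8.97e-09) for B6-13D2 against B6 and 1.39 (SE 0.235, edgeR adjusted p 6.56e-05) for D2-13B6 against D2. For D2 against B6, which shares libraries with both, it was -3.14 (SE 0.214, edgeR adjusted p 1.01e-09).

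Nlrp4f (65177111 to 65205977) belongs to the NLR family of leucine-rich repeat proteins, in a subfamily known for expression in oocytes. Its levels were 27.3, 27.2 and 28.2 CPM in B6, 16.1, 16.5 and 16.2 in B6-13D2, 6.5, 7.7 and 8.6 in D2, and 45.3, 43.0 and 49.5 in D2-13B6. No 2 groups overlapped, the D2-13B6 libraries were the highest and the D2 libraries the lowest. The gene fell with the D2 segment on the B6 background, by 0.76 on the log2 scale (SE 0.0713, edgeR adjusted p 4.91e-08). With the B6 segment on the D2 background it rose by 2.59 (SE 0.0753, edgeR adjusted p 3.65e-14). The averaged effect of the D2 allele was -1.68 (SE 0.0522).

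Fancc (63285043 to 63497278) encodes a subunit of the Fanconi anaemia core complex, which acts in repair of DNA crosslinks. It had 19.3, 20 and 19.9 CPM in B6, 12.2, 12.7 and 11.7 in B6-13D2, 10.6, 9.65 and 9.92 in D2, and 18.2, 17.1 and 18.3 in D2-13B6. All 6 libraries with the D2 segment lay below all 6 with the B6 segment. Libraries with the same segment also differed: the log2 fold change was 0.29 for B6-13D2 against D2 (edgeR adjusted p 0.000862) and -0.15 for D2-13B6 against B6 (edgeR adjusted p 0.0404), the latter not called under the scaling on chromosome 13 (0.05, edgeR adjusted p 0.501). The log2 fold changes were -0.69 (SE 0.0622, edgeR adjusted p 2.87e-08) for B6-13D2 against B6 and 0.83 (SE 0.0629, edgeR adjusted p 3.32e-09) for D2-13B6 against D2. On the 2 backgrounds the effects stood 0.14 apart (SE 0.0888, edgeR adjusted p 0.176), but 0.50 (edgeR adjusted p 8.96e-05) under the scaling on chromosome 13. The locus overlaps 2010111I01Rik, and whether the counting used strand is not stated, so the split of reads between these genes is uncertain.

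Golm1 (59634626 to 59675811), a membrane protein of the Golgi, and Naa35 (59585259 to 59635922), a subunit of an amino-terminal acetyltransferase, overlap at one end. Golm1 had 108, 109 and 105 CPM in B6, 74.2, 73.7 and 68.0 in B6-13D2, 65.5, 69.5 and 69.1 in D2, and 85.6, 85.1 and 87.8 in D2-13B6. All libraries with the D2 segment were below all with the B6 segment. Its log2 fold changes were -0.58 (SE 0.0402, edgeR adjusted p 9.18e-10) on the B6 background and 0.34 (SE 0.0402, edgeR adjusted p 1.09e-06) for D2-13B6 against D2. Naa35 had the same directions, -0.30 (SE 0.0469) and 0.17 (SE 0.0476), with 111 CPM ± 5.56 in B6, 89.9 ± 3.42 in B6-13D2, 74.0 ± 4.63 in D2 and 82.9 ± 1.39 in D2-13B6. Its B6-13D2 libraries lay above those of D2-13B6, so the alleles did not separate the libraries.

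Fbp2 and Fbp1 are neighbouring genes for fructose-bisphosphatases, enzymes of gluconeogenesis. Fbp2 (62836877 to 62858422) had 1.49, 2.02 and 1.89 CPM in B6, 0.969, 0.906 and 0.491 in B6-13D2, 1.33, 1.58 and 1.09 in D2, and 3.51, 3.18 and 3.06 in D2-13B6. The groups of each congenic pair did not overlap, but a B6 library lay below a D2 library. On the log2 scale the changes were -1.17 (SE 0.245, edgeR adjusted p 0.000498) and 1.26 (SE 0.207, edgeR adjusted p 5.03e-05). Fbp1 (62864753 to 62888282) had 2, 5 and 4 counts in B6, 0, 1 and 1 in B6-13D2, 4, 12 and 1 in D2, and 19, 21 and 14 in D2-13B6. Its call in both pairs was lost in 9 of 19 alternatives, and at these counts no fold is given.

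Slc35d2 (64096308 to 64129368), a nucleotide sugar transporter, was the follower with whole counts and more than 1 CPM that was higher with the D2 segment by more than 0.5. It had 2.81, 2.43 and 2.70 CPM in B6, 7.17, 6.71 and 6.79 in B6-13D2, 5.00, 5.34 and 4.73 in D2, and 2.88, 3.27 and 3.20 in D2-13B6. All 6 libraries with the D2 segment were above the other 6, and B6-13D2 exceeded the D2 parent. On the log2 scale it changed by 1.38 (SE 0.114, edgeR adjusted p 9.28e-09) for B6-13D2 against B6 and -0.70 (SE 0.109, edgeR adjusted p 2.87e-05) for D2-13B6 against D2.

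Gm10324 and Gm10772, predicted genes near 66 Mb, were also higher with the D2 segment. Gm10324 (66119547 to 66122836) had 14.1, 15.3 and 13.4 CPM in B6, 33.4, 33.0 and 31.9 in B6-13D2, 38.2, 43.0 and 47.6 in D2, and 22.1, 21.9 and 24.3 in D2-13B6. No libraries with different segments overlapped, with log2 fold changes of 1.2 (SE 0.0782, edgeR adjusted p 3.49e-10) and -0.92 (SE 0.069, edgeR adjusted p 3.16e-09). Its longest reading frame held 19 matches to the C2H2 zinc finger pattern and its reads were divided among similar genes, so its level is uncertain. In all, 5 members still held 3 or more such matches: 6720489N17Rik, Platr25, Gm5141, Gm3604 and Gm10324. Gm10772 (66227319 to 66227573) had 0.229 CPM ± 0.0298 in B6, 0.893 ± 0.203 in B6-13D2, 0.719 ± 0.128 in D2 and 0.194 ± 0.0246 in D2-13B6, and its groups separated by segment. Its log2 fold changes were 1.94 (SE 0.354, edgeR adjusted p 0.000131) and -1.84 (SE 0.348, edgeR adjusted p 0.000198).

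Spata31d1a, of a gene family known from spermatogenesis, had 2.59, 3.15 and 2.27 CPM in B6, 1.70, 1.95 and 1.66 in B6-13D2, 0.5, 0.584 and 0.546 in D2, and 1.26, 1.36 and 1.16 in D2-13B6. The log2 fold changes were -0.59 (edgeR adjusted p 0.0108) and 1.2 (edgeR adjusted p 0.000249). The groups of each pair did not overlap, but the call was lost with DESeq2 and without B6 replicate 2. The 6 remaining followers were all higher with the D2 segment by less than 0.3 on the log2 scale in either pair, and none kept its call with scaling on chromosome 13 genes outside the interval. They are Sfxn1, a mitochondrial serine transporter, Sdha, the flavoprotein of succinate dehydrogenase, Grk6, a kinase of G protein-coupled receptors, Rab24, a small GTPase, Mrpl36, a mitochondrial ribosomal protein, and Ubqln1, a ubiquitin-binding shuttle protein. Grk6 had 78.9 CPM ± 1.04 in B6, 94.8 ± 1.39 in B6-13D2, 77.2 ± 4.44 in D2 and 69.4 ± 0.19 in D2-13B6. Sfxn1 had 67.4 CPM ± 5.32, 77.9 ± 1.94, 65.6 ± 6.56 and 55 ± 1.11 in that order, and Sdha 243 CPM ± 7.7, 262 ± 7.39, 225 ± 2.83 and 206 ± 2.72. In each of these 3 genes B6-13D2 was the highest group and D2-13B6 the lowest, while B6 and D2 lay between.

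**Figure D2:**
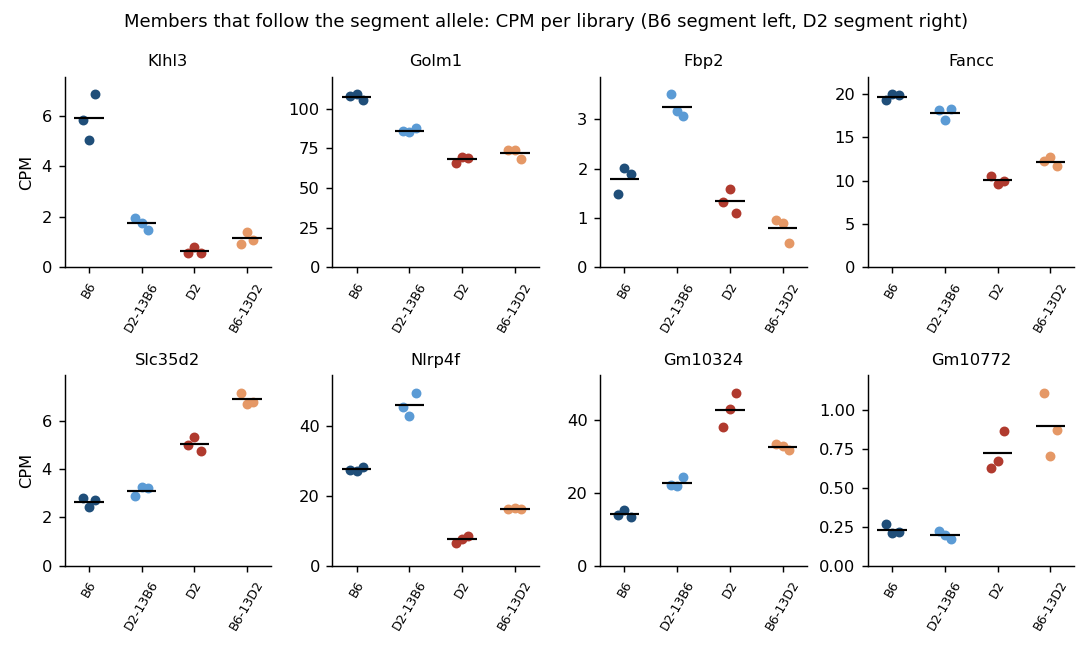
CPM of members that followed the segment allele (vertical axis, from 0) in each library, by group; points are libraries and lines are group means of 3. Klhl3, Golm1, Fancc and Nlrp4f are lower, and Slc35d2 and Gm10324 higher, in the libraries with the D2 segment.

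Over all members, 9 had every library with the D2 segment on one side of every library with the B6 segment (6.34%, against 2.79% of all genes). Above were 5 (0.916% of all genes) and below were 4 (1.88% of all genes). They are Klhl3, Ubqln1, Golm1, Fancc, Slc35d2, Nlrp4f, Gm10324, Gm10772 and Fbxl21, an F-box protein of the circadian clock. Fbxl21 was not called in B6-13D2 against B6 (0.52, edgeR adjusted p 0.143) and had about 1 CPM or less in most libraries. Averaged over backgrounds, the D2 allele changed 74 members (52.1%, against 43.9% of all genes), 39 higher (16.5% of all genes) and 35 lower (27.4%). This split depended on the setting. RLE size factors gave 49 higher and 34 lower (20.9% and 22.9% of all genes), DESeq2 47 and 32 (19.2% and 20.5%). Among the 124 members averaging 1 CPM or more, 47 were higher and 29 lower (26.1% and 25.2%). Testing without a filter gave 36 and 38 (10.3% and 17.0%). The scaling on chromosome 13 turned the split, to 25 higher (10.6% of all genes) and 47 lower (36.7%).

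The larger group of 48 members moved with the congenic lines rather than with the allele, at a share near that of all genes (33.8%, against 32.2%). Of these, 40 were lower in both congenic lines than in the parent of the same background (28.2%, against 19.8% of all genes) and 8 were higher in both (5.63%, against 12.4% of all genes). Under the scaling on chromosome 13 the split was 25 lower and 24 higher (11.8% and 27.4% of all genes), and 33 of the 48 were shared. All 6 congenic libraries lay below all 6 parental libraries in 25 members (17.6%, against 11.5% of all genes) and above them in 3 (2.11%, against 5.44%). The segment effect differed between backgrounds, by edgeR's test of the difference, for 95 members (66.9%, against 64.5% of all genes), 28 higher (31.1% of all genes) and 67 lower (33.4%). This split turned to 61 higher and 41 lower under the scaling on chromosome 13 (50.1% and 21.4% of all genes). The plot of both backgrounds against each other shows the 40 in the upper left and the 8 in the lower right.

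**Figure D3:**
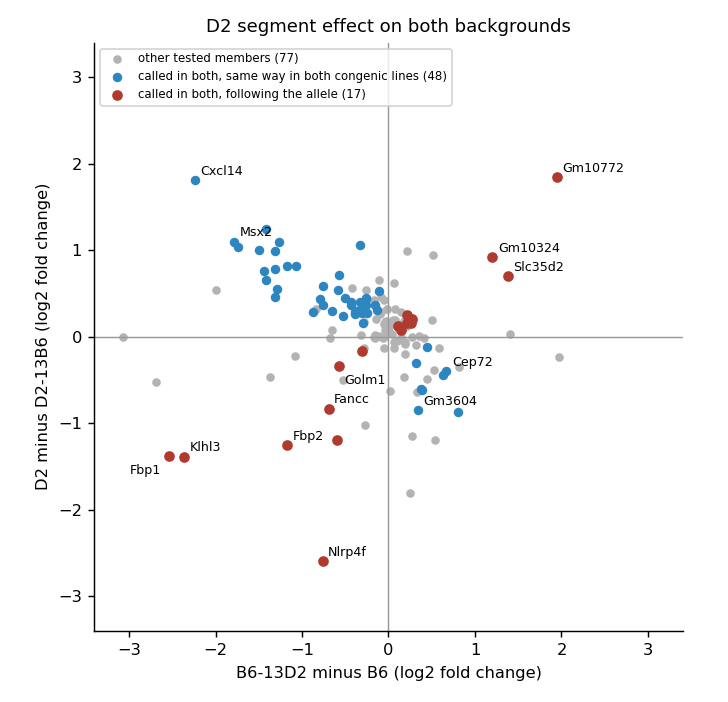
Effect of the D2 segment on the B6 background (B6-13D2 minus B6, log2 fold change, horizontal axis) and on the D2 background (D2 minus D2-13B6, vertical axis) for the 142 tested members. The 17 members called in both that followed the allele lie in the lower left and upper right, and the 48 that shifted alike in either congenic line lie in the other quadrants.

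Cxcl14 (56288643 to 56296551), a chemokine, had the largest change of this kind. B6 libraries had 143, 145 and 142 CPM, B6-13D2 31.4, 32.2 and 27.1, D2 231, 214 and 200, and D2-13B6 61.6, 63.3 and 59.2. No 2 groups overlapped, and both congenic groups were below both parents. The log2 fold changes were -2.24 (SE 0.06, edgeR adjusted p 1.88e-15) for B6-13D2 against B6 and -1.81 (SE 0.0545, edgeR adjusted p 5.03e-14) for D2-13B6 against D2. D2 was above B6 by 0.59 (SE 0.0524, edgeR adjusted p 3.3e-08).

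Tgfbi (56609523 to 56639562), an adhesion protein of the extracellular matrix, had 67.1, 68.2 and 63.9 CPM in B6, 23.4, 22.9 and 24.4 in B6-13D2, 113, 112 and 109 in D2, and 55.2, 55.7 and 55.1 in D2-13B6. It fell by 1.5 on the log2 scale in B6-13D2 (SE 0.0424, edgeR adjusted p 3.72e-15) and by 1.01 in D2-13B6 (SE 0.0368, edgeR adjusted p 3.61e-13). The groups were ordered as for Cxcl14. Msx2 (53466884 to 53473074), a homeobox factor, had 8.30, 7.64 and 7.59 CPM in B6, 2.11, 2.42 and 2.30 in B6-13D2, 10.8, 10.8 and 11.9 in D2, and 5.70, 4.84 and 4.97 in D2-13B6. The log2 fold changes were -1.78 (SE 0.112, edgeR adjusted p 2.09e-10) and -1.10 (SE 0.0913, edgeR adjusted p 1.14e-08), again with no overlap of groups.

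Gadd45g (51846678 to 51848468), a stress-induced gene of growth arrest, had 47.4 CPM ± 1.81 in B6, 14.1 ± 1.47 in B6-13D2, 71.7 ± 5.62 in D2 and 35.0 ± 1.63 in D2-13B6. Dbn1 (55473429 to 55488111), which binds actin, had 83.5 ± 1.21, 33.8 ± 0.957, 114 ± 3.83 and 66.2 ± 0.721 CPM, in that order. Its neighbour Pdlim7 (55495795 to 55513676), a PDZ and LIM domain protein of the cytoskeleton, had 90.6 ± 4.26, 40.2 ± 1.59, 129 ± 8.65 and 73.4 ± 0.651 CPM. Every library of these 3 genes kept the order B6-13D2, D2-13B6, B6, D2 from low to high. The log2 fold changes in B6-13D2 and D2-13B6 were -1.74 and -1.03 for Gadd45g, -1.31 and -0.79 for Dbn1, and -1.17 and -0.81 for Pdlim7. Each passed edgeR's test in both pairs.

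Gas1, a hedgehog co-receptor, changed by -1.31 (SE 0.129) in B6-13D2 and had 15.1 CPM ± 1.48 in B6, 6.05 ± 0.696 in B6-13D2, 30.1 ± 4.94 in D2 and 15.1 ± 1.28 in D2-13B6. Cplx2, a regulator of vesicle fusion with divided reads, changed by -1.26 (SE 0.149) and -1.09 (SE 0.143). A protease and a protease inhibitor at the distal end were lower too. Erap1, which trims peptides in the endoplasmic reticulum, changed by -1.29 (SE 0.111) and -0.56 (SE 0.0877), and Cast (the calpain inhibitor calpastatin, 74692368 to 74808810) by -0.79 (SE 0.0404) and -0.44 (SE 0.0383). Cast had 94.5 CPM ± 3.01 in B6, 54.6 ± 1.73 in B6-13D2, 109 ± 3.53 in D2 and 80.4 ± 1.63 in D2-13B6, without overlap. Erap1 and Cast overlap, so their reads are uncertain at the shared end.

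**Figure D4:**
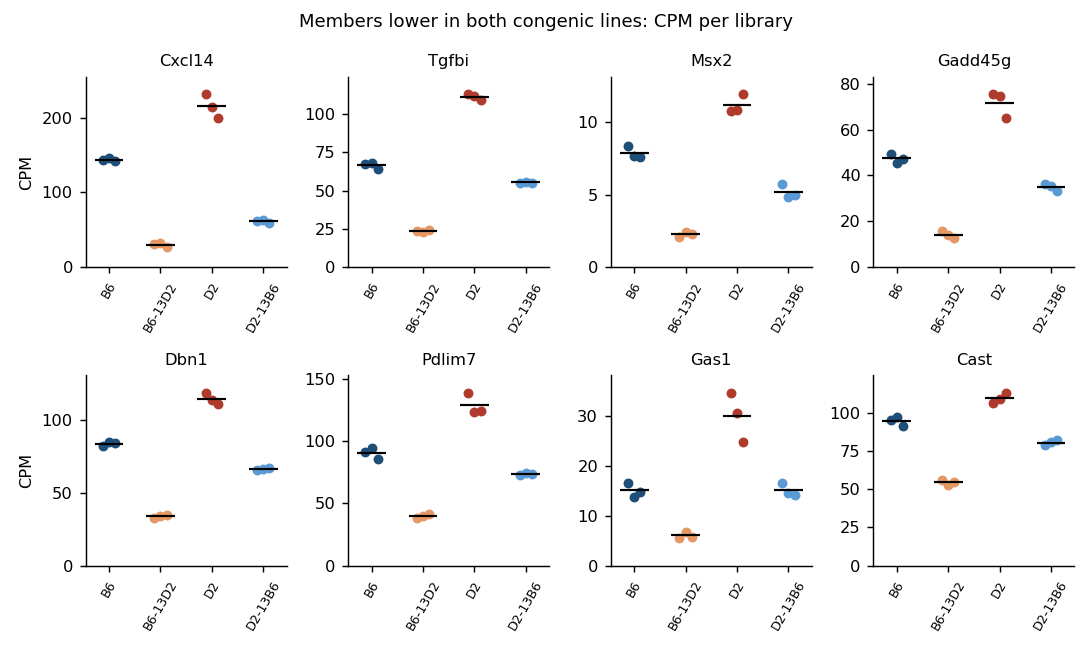
CPM of 8 members that were lower in both congenic lines (vertical axis, from 0) in each library, by group; points are libraries and lines are group means of 3. In Cxcl14, Tgfbi, Msx2, Gadd45g, Dbn1, Pdlim7 and Cast the groups rank B6-13D2, D2-13B6, B6 and D2 from low to high, and in Gas1 the D2-13B6 and B6 libraries overlap.

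The summed fibroblast markers have the same order of groups. All 8 of them had a lower mean in B6-13D2 than in B6, 7 of 8 had a lower mean in D2-13B6 than in D2, and all 8 had a higher mean in D2 than in B6. Of the 142 members, 26 had group means in this order (18.3%, against 14.8% of all genes). Among the 40 members lower in both congenic lines it was 25 (62.5%), and among all 3403 such genes of the genome 2166 (63.7%). The part of fibroblast RNA in the lower levels was not tested, and in bulk RNA fewer cells of a type and less RNA per cell cannot be told apart. Primitive endoderm markers summed to 31.8 to 32.7 CPM in B6, 14.4 to 14.8 in B6-13D2, 40.8 to 43.4 in D2 and 35.9 to 37.9 in D2-13B6. Most of that sum was Dab2, with means of 21.7, 7.92, 29.7 and 21.9 CPM in the same order. Of the 6 markers, 4 had a lower mean in B6-13D2 than in B6, and 3 in D2-13B6 than in D2. Trophoblast markers summed to 55.2 to 62.6 CPM in B6, 81.7 to 86.0 in B6-13D2, 48.3 to 50.6 in D2 and 43.4 to 46.5 in D2-13B6. Tfap2c carried these sums, with means of 41.0, 66.0, 31.6 and 11.8 CPM, and most of the list went the other way: 4 of the 6 had a lower mean in B6-13D2 than in B6, and 5 of 6 a higher mean in D2-13B6 than in D2. Markers of the state resembling early cleavage embryos summed to 40.7 to 43.0 CPM in B6, 36.1 to 37.0 in B6-13D2, 157 to 190 in D2 and 27.4 to 31.3 in D2-13B6.

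The 8 members that were higher in both congenic lines are Sema4d, Simc1, Fam193b, Gm3604, Platr25, Ptch1, Slc12a7 and Cep72. Cep72, a centrosomal protein, had 9.53, 8.94 and 10.2 CPM in B6, 14.9, 15.7 and 15.1 in B6-13D2, 6.66, 6.45 and 6.60 in D2, and 8.61, 8.11 and 9.32 in D2-13B6. Each congenic group was above its own parent, and D2-13B6 overlapped B6. Its log2 fold changes were 0.67 (SE 0.0743, edgeR adjusted p 4.36e-07) and 0.40 (SE 0.0804, edgeR adjusted p 0.000366). Ptch1, the receptor that restrains hedgehog signalling, had 54.1 CPM ± 1.58 in B6, 70.3 ± 0.637 in B6-13D2, 42.9 ± 0.551 in D2 and 65.2 ± 1.05 in D2-13B6, so all congenic libraries were above all parental ones. It rose by 0.38 (SE 0.0368) and 0.60 (SE 0.037), while Gas1, its co-receptor, fell in both. Sema4d, a semaphorin, rose by 0.63 (SE 0.0398) and 0.44 (SE 0.0398), also without overlap. Gm3604, another zinc finger gene with divided reads, rose by 0.34 (SE 0.0922) and 0.85 (SE 0.0775). Ptch1 and Sema4d were named after their values were seen.

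Some members differed between the parents, in a single congenic pair, or in both pairs by unlike amounts. D2 against B6 called 87 members (61.3%, against 60% of all genes), 45 higher (29.8% of all genes) and 42 lower (30.3%), and shares its libraries with both congenic comparisons. With RLE size factors the split was 52 higher and 36 lower (34.0% and 25.9% of all genes), and with DESeq2 49 and 34 (31.6% and 24.4%). Under the scaling on chromosome 13 it was 40 and 48 (26.6% and 33.5%). H2afy (56073619 to 56136361), which encodes the histone variant macroH2A, had 195, 198 and 196 CPM in B6, 183, 186 and 176 in B6-13D2, 111, 107 and 104 in D2, and 72.0, 77.0 and 75.2 in D2-13B6. The B6 background was higher whichever segment it carried, at a log2 difference of -0.87 (SE 0.0368, edgeR adjusted p 1.79e-12) for D2 against B6. D2-13B6 was below D2 by 0.53 (SE 0.0377); B6-13D2 was below B6 by 0.11 (SE 0.0357), a difference that turned to 0.01 with scaling on chromosome 13 genes outside the interval. Adcy2, an adenylyl cyclase, had 3.47 CPM ± 0.59 in B6, 4.02 ± 0.555 in B6-13D2, 7.69 ± 0.736 in D2 and 3.89 ± 0.325 in D2-13B6. It fell with the B6 segment on the D2 background (-0.99, SE 0.129, edgeR adjusted p 3.41e-06) but did not pass the test in B6-13D2 against B6 (0.21, SE 0.148, edgeR adjusted p 0.231). Habp4, a hyaluronan- and RNA-binding protein, was called in both pairs and fell by 1.06 (SE 0.0712) in D2-13B6 and by 0.33 (SE 0.0766) in B6-13D2. Neurog1, a proneural factor at about 1 CPM, fell by 2.69 (SE 0.388, edgeR adjusted p 1.07e-05) for B6-13D2 and was at 0.53 (SE 0.307, edgeR adjusted p 0.155) for D2-13B6. Under the scaling on chromosome 13 the latter was 0.76 (edgeR adjusted p 0.0395), so that Neurog1 then followed the allele.

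Between groups with the same segment on different backgrounds, B6-13D2 against D2 called 106 members (74.6%, against 74.6% of all genes), 49 higher (36.7% of all genes) and 57 lower (38.0%). Under the scaling on chromosome 13 this turned to 61 higher and 49 lower (45.6% and 30.9% of all genes). The reciprocal, D2-13B6 against B6, called 95 (66.9%, against 59.0% of all genes), 19 higher (24.5% of all genes) and 76 lower (34.6%), against 36 and 37 under the scaling on chromosome 13 (40.2% and 17.1% of all genes). The median member stood 0.16 below D2 on the log2 scale in D2-13B6 (median -0.16), while the median of all genes was 0.0 and that of 444 tested chromosome 13 genes outside the interval was -0.18. The shift was thus present on both sides of the limits. In B6-13D2 against B6 the medians were -0.10 for members, -0.04 for all genes and -0.13 for chromosome 13 outside the interval. Scaling on those genes moved the median of all genes to 0.24 in D2-13B6 against D2 and to 0.09 in B6-13D2 against B6. It turned the split of called members in D2-13B6 against D2 from 23 higher and 73 lower to 51 higher and 36 lower (49.2% and 15.8% of all genes), and in B6-13D2 against B6 from 30 and 57 to 46 and 48 (36.2% and 25.2% of all genes).

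Members were also grouped by function, in lists drawn up with earlier results of these data known. Of all genes tested, 29.8% were higher and 30.3% lower in D2 than in B6, 25.4% and 32.9% in B6-13D2 than in B6, and 27.6% and 29.7% in D2-13B6 than in D2, and the lists are short. Of 7 tested developmental transcription factors, 5 were higher and 0 lower in D2 than in B6, and 5 were lower and 0 higher in each congenic line against its parent (32.9% and 29.7% of all genes lower). In B6-13D2 these were Nfil3 (-0.75), Msx2, Pitx1 (-1.44), Neurog1 and Irx1 (-1.42). In D2-13B6 they were Nfil3 (-0.59), Msx2, Pitx1 (-0.76), Irx1 (-1.24) and Irx2 (-0.43). The medians of the list were -1.42 and -0.59, against -0.04 and 0.0 over all genes. Under the scaling on chromosome 13, 4 were lower and 2 higher in D2-13B6 than in D2 (15.8% and 49.2% of all genes), and Irx2 was no longer called. Fibroblast markers moved in the same directions, and their part in this was not tested.

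Of 13 members of vesicle traffic and the cytoskeleton, 9 were lower and 1 higher in B6-13D2 than in B6, and 11 were lower and 1 higher in D2-13B6 than in D2, against 32.9% and 29.7% of all genes lower. Beside Dbn1 and Pdlim7, both lower in both, Clptm1l changed by -0.58 and -0.54 and Exoc3, a subunit of the exocyst, by -0.26 and -0.45. The member higher in D2-13B6 was Golm1. The medians of the list were -0.42 and -0.41, and with scaling on chromosome 13 genes outside the interval 7 were lower and 1 higher in D2-13B6 (15.8% and 49.2% of all genes). The means of 8 of 8 and 7 of 8 fibroblast markers were lower in the same comparisons, and their part in this was not tested. Of 6 tested proteases and inhibitors, of 16 in the interval, Agtpbp1, Ctsl, Erap1 and Cast fell in both congenic lines (19.8% of all genes did), although Agtpbp1 was not called in D2-13B6 under the scaling on chromosome 13 (-0.04, edgeR adjusted p 0.502). Ctla2b (a cathepsin inhibitor), with a mean under 1 CPM, rose by 1.2 in D2-13B6. None of the placental cathepsins (0 of Ctsj, Ctsq, Ctsr, Ctsm, Cts3, Cts6, Cts7 and Cts8) was tested.

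Of 12 mitochondrial members, 8 rose and 0 fell with the D2 allele when both backgrounds were averaged, against 16.5% and 27.4% of all genes. The median was 0.16, and -0.04 over all genes. The largest was Ndufs6, a subunit of complex I, at 0.35 (SE 0.0765, edgeR adjusted p 0.00132). Its libraries had 18.1, 19.9 and 20.1 CPM in B6, 21.5, 30.8 and 29.9 in B6-13D2, 16.9, 18.3 and 19.8 in D2, and 17.3, 15.3 and 15.2 in D2-13B6. Only the pair on the B6 background was called and free of overlap, and Ndufs6 overlaps Mrpl36. When scaled on chromosome 13, 6 of the 12 rose and 0 fell in the average (10.6% and 36.7% of all genes), but in D2-13B6 against D2 the list turned from 9 lower and 0 higher to 3 higher and 0 lower (49.2% and 15.8% of all genes).

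Of 10 tested members of DNA repair, telomere and cell division, 8 were lower and 1 higher in D2 than in B6 (30.3% and 29.8% of all genes), with a median of -0.53 against 0.01 over all genes. All 8 stem cell markers also had a lower mean in D2 than in B6, and their part in this was not tested. The 8 were Fancc (-0.98), Cdc14b (-0.65), Tert (-0.59), Trip13 (-0.54), Cep72 (-0.54), Ercc6l2 (-0.52), Cks2 (-0.39) and Rmi1 (-0.22), and the member that was higher was Gadd45g. Fancc followed the segment allele in both pairs, and Ercc6l2 did so too under the scaling on chromosome 13. Cks2, a partner of cyclin-dependent kinases, had 65.8 CPM ± 3.43 in B6, 76.4 ± 3.83 in B6-13D2, 50.2 ± 3.28 in D2 and 46.3 ± 1.97 in D2-13B6. It changed by 0.22 (edgeR adjusted p 0.00209) for B6-13D2 against B6 but was not called in D2-13B6 against D2 (-0.12, edgeR adjusted p 0.0756).

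Of 10 tested members of RNA processing and translation, 7 were lower and 0 higher in D2 than in B6 (30.3% and 29.8% of all genes). The means of all 8 stem cell markers were lower too, and their part in this was not tested. Hnrnpa0, an RNA-binding protein, had the highest level per length among the members described here, 170 CPM per kb of exon, and its averaged segment effect was 0.24 (SE 0.0662, edgeR adjusted p 0.0074). Of 18 tested receptors and signalling proteins, 4 were higher and 6 lower in B6-13D2 than in B6, and 2 were higher and 7 lower in D2-13B6 than in D2; the shares of all genes were 25.4% and 32.9%, and 27.6% and 29.7%. Under the scaling on chromosome 13 the list had 5 higher and 5 lower in either comparison (36.2% and 25.2%, and 49.2% and 15.8%, of all genes). Dok3, an adaptor at or below about 1 CPM, had an averaged segment effect of -0.92 (SE 0.241, edgeR adjusted p 0.005). Of 10 chromatin and transcription regulators, 1 was higher and 4 lower in B6-13D2 (25.4% and 32.9% of all genes), and 2 were higher and 7 lower in D2-13B6 (27.6% and 29.7%). Under the scaling on chromosome 13 the chromatin list had 3 higher and 3 lower in B6-13D2 (36.2% and 25.2% of all genes). In D2-13B6 it then had 4 higher and 3 lower (49.2% and 15.8%). Of 12 tested metabolic enzymes and transporters, 3 were higher and 5 lower in B6-13D2 (25.4% and 32.9% of all genes), and 4 were higher and 6 lower in D2-13B6 (27.6% and 29.7%). The latter turned to 5 higher and 3 lower under the scaling on chromosome 13 (49.2% and 15.8% of all genes). Of 2 tested extracellular matrix genes, Tgfbi alone was called. Tspan17, a tetraspanin, fell by 0.62 in D2-13B6 against D2 and Irx2 by 0.43, while in B6-13D2 against B6 they stood at 0.06 (edgeR adjusted p 0.656) and -0.05 (edgeR adjusted p 0.726). The value of Irx2 in D2-13B6 was -0.19 under the scaling on chromosome 13 and not called (edgeR adjusted p 0.106).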

How the data were processed

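RNA-seq counts of 12 libraries were used. The authors deposited expected counts per Ensembl gene ID, estimated by EMASE per the file's title, so reads that match several genes are divided between them. The submitters' processing notes list mm10, Bowtie 1.0.0 and edgeR 3.34.1; the genome each strain's reads were aligned to is not given in the sources used here, and allele-dependent mapping was not tested. Of the 196 members, 170 had whole counts in every library (to within 1e-06). Of the 142 tested, 22 had divided reads. Every column was mapped (0 left out). Symbols and positions came from GENCODE M21 for 42462 of 43346 IDs.

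Counts were rounded. Tests used edgeR 4.0.16 under R 4.3.3, with filterByExpr (minimum count 10, by group), TMM, a quasi-likelihood fit of 4 group means over all 12 libraries, and Benjamini-Hochberg adjustment over 17148 genes at 0.05. Genes past that threshold are said to be called. CPM use TMM-scaled library sizes. A floor of 3 counts was set. The fit was checked on simulated counts in which only chosen genes followed the segment. With edgeR the call in both pairs was recovered for 58.6% of genes changed by 0.5 on the log2 scale. For genes changed by 1 it was 82.0%. Far more genes differ between the real groups, so these shares may not hold for the members.

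The members and lists were chosen with earlier results of these data known. Genes were named by rule: the 12 followers of the allele with the smallest larger adjusted p, the 3 highest and 3 lowest changes in each of 3 comparisons among called members whose groups did not overlap and whose mean log2 CPM reached 2, the 4 smallest larger adjusted p among members against the allele, the largest averaged effect in each list and direction, and the members at the limits. Other names were chosen after their values were seen. Of 133 listed names, 120 lie in the interval. Alternatives were DESeq2 1.42.0, RLE size factors, other filters, only whole counts, only the libraries compared, the replicate number as a block, a fold threshold, leaving out each library, and, added later, scaling on chromosome 13 genes outside the interval.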

Additional observations from a re-analysis of the deposited data

Results flagged for a closer look

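The effect of the segment differed between the backgrounds, by edgeR's test of that difference, for 95 of the 142 members (66.9%, against 64.5% of all genes), 28 higher and 67 lower. This difference equals both congenic lines minus both parental strains, so it cannot be told apart from anything that the congenic libraries share. With scaling on chromosome 13 genes outside the interval the split was 61 higher and 41 lower (50.1% and 21.4% of all genes).

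Among followers of the allele the log2 difference was 1.83 for Nlrp4f, 0.68 for Slc35d2, 0.29 for Gm10324, -0.24 for Golm1 and -0.97 for Klhl3. That of Golm1 turned to 0.13 with scaling on chromosome 13 genes outside the interval, and that of Klhl3 was then -0.61 and not called. Among members lower in both congenic lines it was -4.05 for Cxcl14, -2.88 for Msx2, -2.78 for Gadd45g, -2.5 for Tgfbi, -2.36 for Cplx2 and -2.31 for Gas1. It was -2.09 for Dbn1, -1.99 for Pdlim7, -1.85 for Erap1, -1.39 for Habp4, -1.23 for Cast and -0.64 for H2afy. For members higher in both it was 1.18 for Gm3604 and 1.07 for Cep72. Others were Neurog1 (-2.16), Adcy2 (-0.78), Tspan17 (-0.56) and Irx2 (-0.47), of which the last 3 were not called under that scaling (-0.41, -0.20 and -0.11).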

How the results depend on the processing

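Where calls also had to reach a log2 size of 1, the members called were 13 for the parents (11.3% of all genes), 26 for the D2 segment on B6 (14.5%), 17 for the B6 segment on D2 (8.96%), 9 for the averaged effect (2.36%) and 34 for its difference (25.6%). With the same segment they were 29 in B6-13D2 against D2 (28.1%) and 15 in D2-13B6 against B6 (11.6%), and 4 followed the allele (0.554%) and 6 went against it (3.76%). Under the other alternatives these totals stayed within 1.5 times, but their splits by direction did not always. Followers numbered 22 (14 higher) with RLE size factors (7.27% of all genes, 3.98% higher), 18 (12 higher) with DESeq2 (6.26%, 3.46% higher) and 21 (14 higher) of 124 members with a mean CPM of at least 1 (9.32%, 5.48% higher), against 17 (9 higher) and 7.32% (3.01% higher). Leaving out each library gave 13 to 19 (6.22% to 7.64% of all genes). Same-numbered libraries did not deviate together (mean correlation -0.0088 over 18 pairs from different groups). With the replicate number as a block 16 members followed the allele (7.04% of all genes), with 87 called for the D2 segment on B6 (57.8%) and 93 for the B6 segment on D2 (56.3%).

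Scaling on chromosome 13 genes outside the interval, added after the data were seen, turned 6 called values of the 36 members named by rule. These were D2-13B6 against B6 for Fancc (to 0.0505) and Grk6 (0.0113), D2-13B6 against D2 for Grk6 (0.0824) and Sdha (0.114), B6-13D2 against B6 for H2afy (0.0124) and the difference for Golm1 (0.13). This scaling adds nearly the same amount to every gene, 0.238 in D2-13B6 against D2, 0.124 in B6-13D2 against B6, 0.196 in D2-13B6 against B6 and 0.362 in the difference, so small values crossed 0. Over all 142 tested members and 7 comparisons it turned 133 of 994 values, 45 of them called, among them D2-13B6 against D2 for the followers Ubqln1 (0.158), Mrpl36 (0.0295) and Rab24 (0.0834). Of 3746 values over 36 named members, 3651 kept their direction and side of the threshold and 89 lost the call. Klhl3, Naa35, Golm1, Fbp2, Fancc, Slc35d2, Nlrp4f and Gm10324 followed the allele in each of the 19 refits and other scalings or filters; the log2 size of 1 and the restriction to whole counts, which removes Gm10324, are not among these. Mrpl36 and Rab24 lost it in 4 each, among them without D2-13B6 replicate 2 or D2 replicate 1; Mrpl36 also lost it without D2-13B6 replicate 1 and Rab24 without D2 replicate 2. Ubqln1 lost it in 10, among them without any single D2-13B6 library or without B6-13D2 replicate 3. Fbp1 lost it without B6-13D2 replicate 1, B6 replicate 2 or 3, D2-13B6 replicate 2, or D2 replicate 1 or 3. Depth limits members under about 1 CPM, such as Fbp1 and Gm10772.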

Other observations

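Of the 34 zinc finger genes left out of the members, 33 were tested and 6 followed the segment allele, against 7.32% of all genes. Their median log2 fold change in D2-13B6 against D2 was 0.29, whereas that of the members was -0.16. In that comparison 14 were higher and 3 lower, against 27.6% and 29.7% of all genes. With scaling on chromosome 13 genes outside the interval, the medians were 0.53 for the zinc finger genes, 0.08 for the members and 0.24 for all genes, and 23 zinc finger genes were higher and 1 lower (49.2% and 15.8% of all genes).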
